A study of Mus musculus with 72 samples.

Results

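Expression of 8 genes of cysteine, taurine and sulfide metabolism was measured in mouse liver. They are Csad, Cdo1, Cth, Cbs, Ethe1, Tst, Mpst and Suox. The genes were chosen by name, with earlier results of these data known, and make up 8 of the 19938 genes measured. Each has exactly 1 probe set that the array annotation gives to this gene alone, and that probe set was used. The question for each gene was how a high-fat diet (HFD) changed its signal in each of 4 inbred strains and whether the strains differed.

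All 72 livers came from male wild-type mice that were housed singly and random-fed at sampling, and each liver was run on 1 array. The HFD groups had been fed the HFD for 21 days. They held 7 mice of 129P2/OlaHsd (129), 7 of C57BL/6J (B6J), 8 of C57BL/6NTac (B6N) and 8 of C3HeB/FeJ (C3H), all 17 weeks old. The control groups held 8, 8, 8 and 18 mice in the same order of strains. Their treatment label reads none, while the protocol names a low-fat diet of no more than 21 days, so what each control ate was not settled. Controls of 129 were 17 weeks old, and those of B6J, B6N and C3H were 15 to 17 weeks old. Age therefore went partly with diet in the last 3 strains and cannot be told apart from it there.

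The liver makes cysteine from homocysteine in 2 steps, called transsulfuration. Cystathionine beta-synthase, encoded by Cbs, joins homocysteine to serine, and cystathionine gamma-lyase, encoded by Cth, releases cysteine. Cysteine dioxygenase, encoded by Cdo1, oxidises cysteine to cysteine sulfinate, and the decarboxylase encoded by Csad turns that into hypotaurine on the way to taurine, with which mouse liver conjugates its bile acids. Both transsulfuration enzymes and the sulfurtransferase encoded by Mpst can also release hydrogen sulfide. Sulfide is oxidised in mitochondria, where the dioxygenase encoded by Ethe1 handles the persulfide intermediate and the sulfurtransferase rhodanese, encoded by Tst, acts beside it. Sulfite oxidase, encoded by Suox, makes the end product sulfate.

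Values are normalised log2 signals per probe set, so a difference of 1 is a 2-fold change. The array medians fell into 3 ranges, 6.459 to 6.653 in 129, 4.509 to 4.668 in both B6 strains together and 3.095 to 3.282 in C3H. They were read as 3 separately normalised sets, and levels were compared only within a set. Each of the 8 genes lay at or above the 64th percentile of every array. The liver label was checked against 8 measured hepatocyte genes, whose mean lay 7.06 to 8.65 log2 units above the array median in the 8 groups. Pancreatic acinar genes varied widely within groups. Over 19 measured genes their mean ran between 6.46 and 12.39 in 129 HFD livers and between 6.5 and 11.29 in 129 controls. The spread was like that in B6J, with 4.69 to 10.2 on HFD and 4.84 to 10.96 in controls. It was smaller in B6N (4.75 to 7.58 on HFD, 4.53 to 6.17 in controls) and C3H (3.29 to 5.91 on HFD, 3.34 to 6.77 in controls). With that mean, centred within each strain, as a covariate, no call on a diet difference of the 8 genes changed. Centred so, it cannot adjust for a difference between strains. The acinar genes were lower in B6N than in B6J, by a median of -2.01 in controls and -1.04 in HFD livers. Array replicate 6 of the 129 controls stood apart, with the highest median of its set (6.653). Without it the 129 differences were -0.67 for Ethe1 (adjusted p = 0.0081), -0.66 for Csad (adjusted p = 0.42) and -0.40 for Cth (adjusted p = 0.19), and no call changed.

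Csad was called lower on HFD in 3 of the 4 strains, Ethe1 in all 4, and Cth in 2. The differences of Csad and Cth were negative in the remaining strains too, without a call. Averaged over strains, Csad was 2.14-fold lower (95% interval 1.83 to 2.51), Ethe1 1.61-fold lower (1.46 to 1.76), Cth 1.45-fold lower (1.34 to 1.56) and Tst 1.105-fold lower (1.05 to 1.16). Cdo1, Cbs, Mpst and Suox were not called in any strain or in the mean. A difference counted as called where limma, fitted to the 8 group means of all arrays, gave it an adjusted p under 0.05 after Benjamini-Hochberg correction across the 19938 genes. All calls on the 8 members were lower. In 129 there was 1, beside 0.577% of all genes called (0.135% lower). In B6J there were 2, beside 0.296% (0.166% lower). B6N had 3, beside 0.918% (0.281% lower), and C3H also 3, beside 0.853% (0.336% lower). The mean effect had 4, beside 3.16% (1.14% lower). The 8 genes were chosen with earlier results of these data known, so these shares are a background and not a test of the list. The tissue was bulk liver, in which fewer cells of a type and less RNA per cell cannot be told apart.

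**Figure D1:**
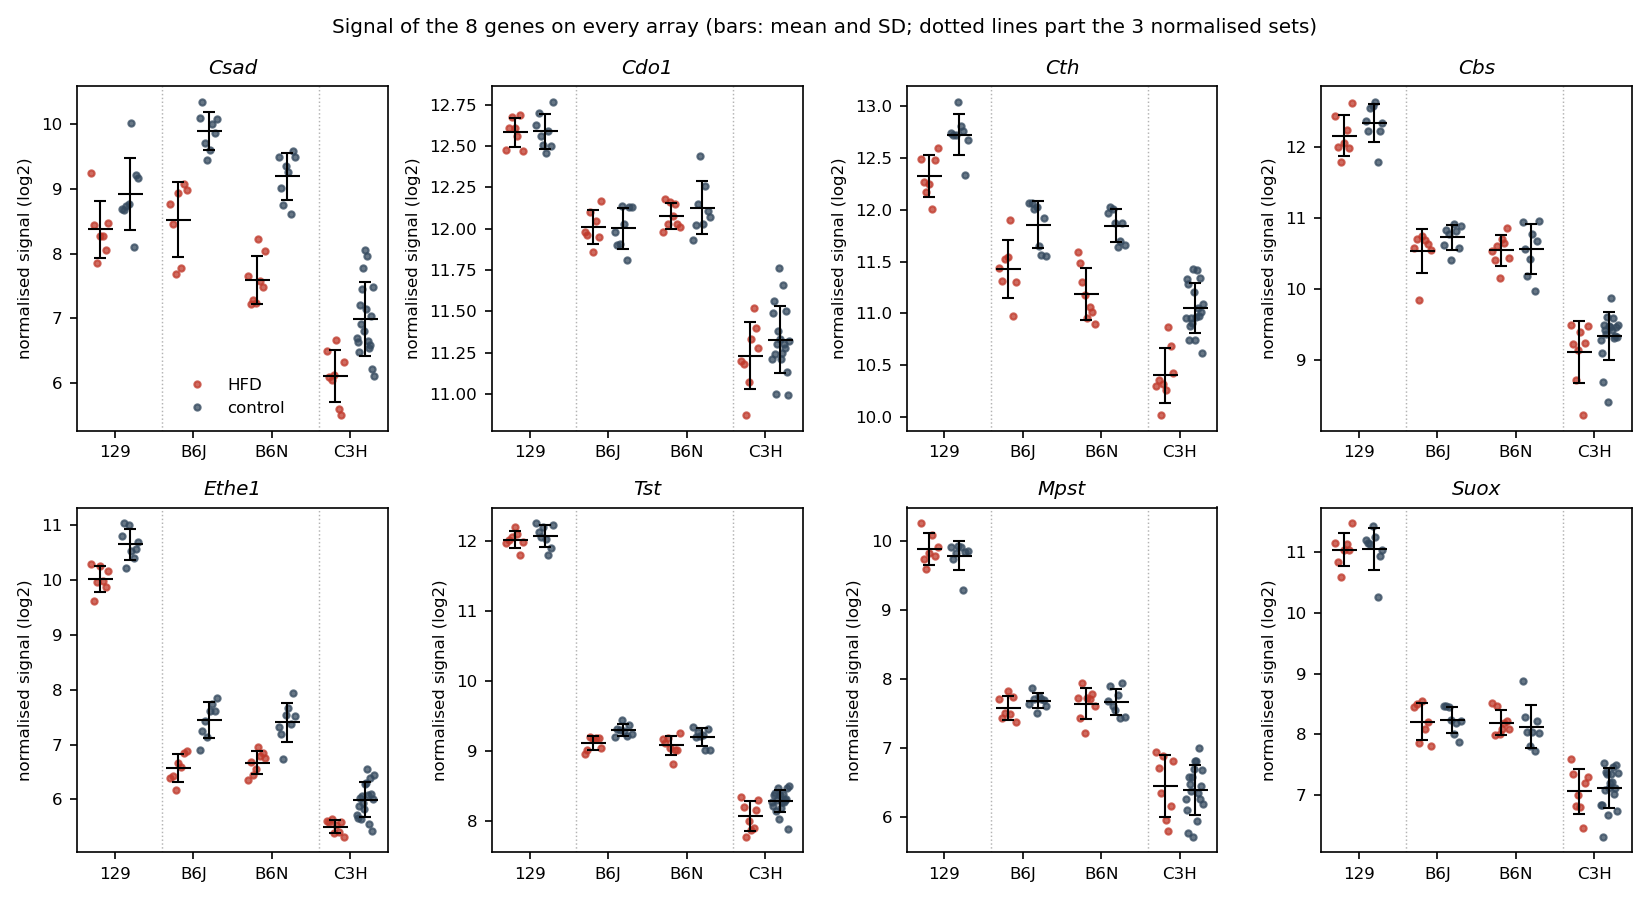
Normalised log2 signal of the 8 genes on each of the 72 arrays (y axes, 1 panel per gene) by strain (x axes), with HFD arrays left of control arrays; points are arrays and bars are mean and SD, and dotted lines part the 3 normalised sets, between which levels are not comparable. Every HFD array lies below every control array for Csad in B6J and B6N, for Ethe1 and Tst in B6J and for Cth in B6N.

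The RefSeq windows before the start sites of Csad and Ethe1, the members called in at least 3 strains, are shown so that the letters can be read beside the expression values. The table of RefSeq windows used here gave 9, for Csad, Cbs, Ethe1, Mpst and Suox (5 of the 8 genes). Capitals mark every match to a GC box (GGGCGG) or a CCAAT box (CCAAT) on either strand, the coordinates are those of GRCm38.p6, and each sequence gives the 250 bases up to a start site, 5′ to 3′ in the direction of transcription. No match overlaps another.
Csad, first window, minus strand, chr15:102189044-102189293: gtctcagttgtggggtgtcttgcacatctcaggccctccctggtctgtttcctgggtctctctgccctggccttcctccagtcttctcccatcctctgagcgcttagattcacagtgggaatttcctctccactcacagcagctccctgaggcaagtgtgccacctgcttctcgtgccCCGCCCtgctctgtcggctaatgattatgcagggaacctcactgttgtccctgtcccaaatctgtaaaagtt
Csad, second window, minus strand, chr15:102205053-102205302: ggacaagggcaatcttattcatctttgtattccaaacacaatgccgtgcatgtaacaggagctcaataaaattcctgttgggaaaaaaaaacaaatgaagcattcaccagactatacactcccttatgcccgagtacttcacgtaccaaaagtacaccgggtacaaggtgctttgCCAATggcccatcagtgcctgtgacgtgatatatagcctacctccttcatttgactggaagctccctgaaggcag
Ethe1, first window, plus strand, chr7:24587293-24587542: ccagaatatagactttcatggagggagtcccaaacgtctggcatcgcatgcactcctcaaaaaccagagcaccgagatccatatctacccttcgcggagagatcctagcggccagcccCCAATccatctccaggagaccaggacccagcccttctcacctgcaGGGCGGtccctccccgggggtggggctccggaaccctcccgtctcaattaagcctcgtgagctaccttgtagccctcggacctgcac
Ethe1, second window, plus strand, chr7:24593658-24593907: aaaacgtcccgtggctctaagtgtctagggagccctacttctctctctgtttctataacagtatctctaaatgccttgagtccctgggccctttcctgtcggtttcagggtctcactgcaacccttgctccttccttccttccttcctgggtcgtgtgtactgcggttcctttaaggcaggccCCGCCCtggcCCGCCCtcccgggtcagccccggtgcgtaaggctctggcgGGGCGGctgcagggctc
The Csad windows differ in composition, with 55.6% G and C in the first and 44.8% in the second, against 60% in each Ethe1 window. The first Csad window holds 1 GC box, 72 bases before the start (position -72), and the second holds 1 CCAAT box at -75. The first Ethe1 window holds a CCAAT box at -132 and a GC box at -87, and the second holds 3 GC boxes, at -67, -57 and -17. Of all 32841 RefSeq windows, which also take in 50 bases after the start, 35.7% hold a GC box and 37.4% a CCAAT box. The nuclear receptor half-site AGGTCA, the TATA box TATAAA, the antioxidant response element core TGACNNNGC and the amino acid response letters TGATGNAA, searched on both strands, do not occur in these 4 windows. They occur in 16.3%, 13.6%, 12.4% and 3.97% of all windows. A match or its absence describes only the letters of a window.

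Taurine synthesis differed between its 2 enzymes, with Csad lower and Cdo1 not called. Csad lies on chromosome 15 between 102176997 and 102205052. In B6J its signal on HFD was 7.68 at the lowest, 8.76 at the median and 9.08 at the highest (n = 7), against 9.45, 9.93 and 10.35 in controls (n = 8). Every HFD array lay below every control array, which held for 0.201% of all genes in B6J. The difference was -1.37 ± 0.24 (SE; adjusted p = 0.00028), a 2.58-fold fall, and no other called gene fell further in B6J.

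In B6N the Csad signal was 7.22, 7.52 and 8.22 at the lowest, median and highest HFD array (n = 8), and 8.62, 9.31 and 9.58 in controls (n = 8). These groups too did not overlap, as held for 0.115% of all genes. Csad fell 3.04-fold in B6N (95% interval 2.21 to 4.18; log2 difference -1.61 ± 0.23, adjusted p = 1.37e-06), which ranked 3rd among the genes called lower there. In C3H the values were 5.50, 6.11 and 6.66 on HFD (n = 8) and 6.10, 6.85 and 8.05 in controls (n = 18). The C3H groups overlapped, and the fall was 1.84-fold (1.40 to 2.41; -0.88 ± 0.20, adjusted p = 0.0056). With array weights, which give noisier arrays less influence, it missed the threshold (-0.84, adjusted p = 0.058).

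Csad in 129 was the exception. The 129 mice were all of the same age, while controls of the other strains were 15 to 17 weeks old. Age and diet cannot be told apart in those strains. In 129 the Csad signal was 7.86, 8.28 and 9.24 on HFD (n = 7) and 8.10, 8.75 and 10.02 in controls (n = 8), and the groups overlapped. The difference was -0.55 ± 0.24 with an unadjusted p of 0.0244 and an adjusted p of 0.70, and it passed the threshold with array weights (-0.65, adjusted p = 0.0066). In 129 Csad averaged 1.88 log2 units above the array median on HFD and 2.42 in controls. Levels in the other strains belong to other normalised sets and were not compared with these. The part of signal level in the smaller 129 difference was not tested. A call in 3 strains and none in the fourth does not show that strains differ. The moderated F test of the strain difference gave an unadjusted p of 0.0081 for Csad and an adjusted p of 0.81, against 25 genes called, or 0.125%. None of the 8 members was called by it.

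Pairwise, the HFD difference of Csad in B6N lay 1.06 ± 0.33 below that in 129 (log2 difference of differences -1.06, unadjusted p = 0.0021, adjusted p = 0.48). That in B6J minus that in 129 was -0.82 ± 0.34 (adjusted p = 0.9995), and that in C3H minus that in B6N was 0.73 ± 0.30 (adjusted p = 0.9996). Only B6N and B6J were read as a single normalised set. In the other pairwise comparisons, and in the F test, strain cannot be told apart from normalised set. Limma called 0 members in each of the 6 pairwise comparisons. Of all genes it called 0.00502% in B6J minus 129, 0.0401% in B6N minus 129, 0.0602% in C3H minus 129, 0% in B6N minus B6J, 0.0401% in C3H minus B6J and 0.0451% in C3H minus B6N. Csad had an unadjusted p under 0.05 in 3 of them, and Ethe1 in 1, C3H minus B6J (0.39 ± 0.18, unadjusted p = 0.0394).

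The array medians of B6N and B6J fell in the same range and were read as a single normalised set, so their levels were compared on that reading. Csad averaged 7.59 ± 0.373 in B6N HFD livers and 8.52 ± 0.580 in B6J HFD livers (SD, n = 8 and 7). The difference was -0.94 ± 0.24 (SE; unadjusted p = 0.0002, adjusted p = 0.082), a 1.91-fold lower level in B6N that missed the threshold, where 0.191% of all genes passed. It was called without 1 of 3 arrays, B6J HFD replicate 3 (-1.07, adjusted p = 0.033), B6J HFD replicate 5 (-1.06, adjusted p = 0.038) or B6N HFD replicate 8 (-1.0, adjusted p = 0.049). Among controls Csad averaged 9.19 ± 0.363 in B6N and 9.89 ± 0.296 in B6J (n = 8 each), a difference of -0.70 ± 0.23 (adjusted p = 0.60), where 0.0351% of all genes passed. The other 7 members differed between the strains by -0.24 to 0.125 over both diets, and none was called.

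Cdo1, on chromosome 18, showed no called difference. In 129 it averaged 12.58 ± 0.087 on HFD and 12.59 ± 0.106 in controls (SD). C3H gave 11.23 ± 0.201 on HFD and 11.33 ± 0.206 in controls, and B6N 12.08 ± 0.078 on HFD and 12.13 ± 0.159 in controls. The B6J arrays ran from 11.86 to 12.17 on HFD and from 11.81 to 12.14 in controls. The mean difference over strains was -0.04 ± 0.04, with a 95% interval of -0.115 to 0.0411. These bounds are small beside the Csad interval of -1.33 to -0.88.

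Of the pair that makes cysteine, Cth fell and Cbs was not called. Cth lies on chromosome 3 between 157894248 and 157925081. In B6N its signal was 10.90, 11.12 and 11.59 at the lowest, median and highest HFD array, against 11.64, 11.87 and 12.03 in controls. Every HFD array lay below every control array, and the fall was 1.58-fold (-0.66 ± 0.12, adjusted p = 0.00011). In C3H the values were 10.02 at the lowest, 10.34 at the median and 10.87 at the highest on HFD, against 10.62 and 11.43 at the lowest and highest in controls, whose mean was 11.05 ± 0.241 (SD). These groups overlapped and the fall was 1.565-fold (-0.65 ± 0.10, adjusted p = 4.4e-06).

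In 129 the Cth signal was 12.01, 12.27 and 12.59 on HFD and 12.33, 12.73 and 13.04 in controls, a difference of -0.40 ± 0.12 (adjusted p = 0.12). In B6J it was 10.98, 11.44 and 11.90 on HFD and 11.55, 11.97 and 12.06 in controls, a difference of -0.43 ± 0.12 (adjusted p = 0.13). Groups overlapped in both strains and neither difference was called. Both were called after quantile normalisation of all arrays together (-0.47, adjusted p = 0.0085 in 129 and -0.42, adjusted p = 0.042 in B6J), and that of B6J also without B6J HFD replicate 5 (-0.51, adjusted p = 0.029). The 6 pairwise strain differences of the Cth effect lay between -0.26 and 0.01.

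Cbs lies on chromosome 17 between 31612623 and 31637233. Its HFD minus control difference was -0.22 ± 0.13 in C3H, -0.20 ± 0.16 in B6J, -0.17 ± 0.16 in 129 and -0.01 ± 0.15 in B6N. The mean was -0.15 ± 0.07 with an unadjusted p of 0.0449 and an adjusted p of 0.42, and its 95% interval of -0.30 to -0.0036 left a fall of up to 1.23-fold within reach. In B6J HFD livers 1 array stood low, replicate 3 at 9.85, with the next at 10.55.

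Ethe1 was the member called in every strain. It lies on chromosome 7 between 24587543 and 24608925. In B6J its signal was 6.18, 6.60 and 6.89 at the lowest, median and highest HFD array, against 6.91, 7.53 and 7.85 in controls. No arrays of the groups overlapped, although the gap was small, and the fall was 1.83-fold (-0.87 ± 0.14, adjusted p = 6.38e-05). In B6N the values were 6.36, 6.71 and 6.95 on HFD and 6.74, 7.45 and 7.95 in controls. The overlap was slight and the fall 1.67-fold (-0.74 ± 0.14, adjusted p = 0.00033).

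In 129, where all mice were of 1 age, Ethe1 was at 9.62, 9.98 and 10.30 on HFD and 10.22, 10.63 and 11.04 in controls. The highest HFD arrays reached into the control range, and the fall was 1.55-fold (-0.64 ± 0.14, adjusted p = 0.0093). In C3H the signal was 5.32, 5.56 and 5.64 on HFD and 5.42, 6.02 and 6.56 in controls. The HFD arrays were tightly grouped (SD 0.119, against 0.322 in controls) and the fall was 1.40-fold (-0.49 ± 0.12, adjusted p = 0.014). The C3H call was lost with array weights (-0.49, adjusted p = 0.19) and with the replicate number as a block (-0.34, adjusted p = 0.10). Of all genes, 5 (0.0251%) were called lower in all 4 strains, Ethe1 among them, and 20 (0.1%) in at least 3, Csad among them.

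Beside these falls, macrophage markers were called higher on HFD in 129 and in the mean effect, and in no other strain. In the mean effect, where Csad, Cth, Ethe1 and Tst fell, 6 of 12 measured markers were called higher, beside 403 of all 19938 genes. All 12 differences were positive and their median was 0.23. In 129, 6 of the 12 were called higher, with a median of 0.54, beside 88 of all 19938 genes. The markers' mean was 8.77 to 10.01 over HFD arrays and 8.42 to 8.94 over controls. In B6J limma called 0 of the 12, though every one had a positive difference (median 0.30). It also called 0 in B6N and C3H, with medians of 0.04 and 0.10 and 3 of the 12 differences negative in each. Before adjustment, limma gave 11 of the 12 markers a p under 0.05 and a higher signal on HFD in 129. The same looser threshold was passed by 6 markers for B6J, 1 for C3H and 0 for B6N. No share of all genes is given at that threshold, so these counts cannot be judged against a background. The mean of the markers was 7.32 to 7.98 on HFD and 7.19 to 7.47 in controls of B6J, 7.21 to 7.79 on HFD and 7.19 to 7.63 in controls of B6N, and 5.1 to 5.7 on HFD and 5.11 to 5.75 in controls of C3H. The part of these markers in these results was not tested. The mean of the hepatocyte genes was 13.46 to 13.65 over 129 HFD arrays and 13.38 to 13.65 over 129 controls. It was 12.33 to 12.73 on HFD and 12.59 to 12.72 in controls of B6J, 12.31 to 12.64 on HFD and 12.35 to 12.71 in controls of B6N, and 11.32 to 11.94 on HFD and 11.48 to 12.02 in controls of C3H. In the mean effect 2 of the 8 hepatocyte genes were called lower, beside 227 of all 19938 genes, with a median change of -0.05 over the list.

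Tst and its relative Mpst are neighbours on chromosome 15. Tst spans 78399556 to 78405865, and Mpst starts 847 bases further on, at 78406712, and ends at 78414015. In B6J the Tst signal was 8.96, 9.17 and 9.20 at the lowest, median and highest HFD array, against 9.20, 9.29 and 9.45 in controls. To 2 decimals the groups touch, and at full precision every HFD array lay below every control array, but the difference was small and not called (-0.19 ± 0.08, adjusted p = 0.67). The differences were -0.05 ± 0.08 in 129, -0.12 ± 0.08 in B6N and -0.22 ± 0.06 in C3H (adjusted p = 0.10). The C3H difference was called without C3H control replicate 17 (-0.24, adjusted p = 0.030), C3H HFD replicate 1 (-0.25, adjusted p = 0.041) or C3H HFD replicate 8 (-0.25, adjusted p = 0.044).

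The mean of the 4 Tst differences was called, at -0.14 ± 0.04 (adjusted p = 0.012), and ranked 221st of the 227 genes called lower. Mpst differed by 0.10 ± 0.14 in 129, 0.06 ± 0.12 in C3H, -0.02 ± 0.14 in B6N and -0.10 ± 0.14 in B6J. Its mean was 0.01 ± 0.07, with a 95% interval of -0.13 to 0.14. Suox, on chromosome 10 between 128669887 and 128673918, had differences of -0.01 ± 0.16, -0.05 ± 0.13, 0.07 ± 0.15 and -0.03 ± 0.16 in the same order of strains. Its mean was -0.01 ± 0.07 (interval -0.15 to 0.14).

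**Figure D2:**
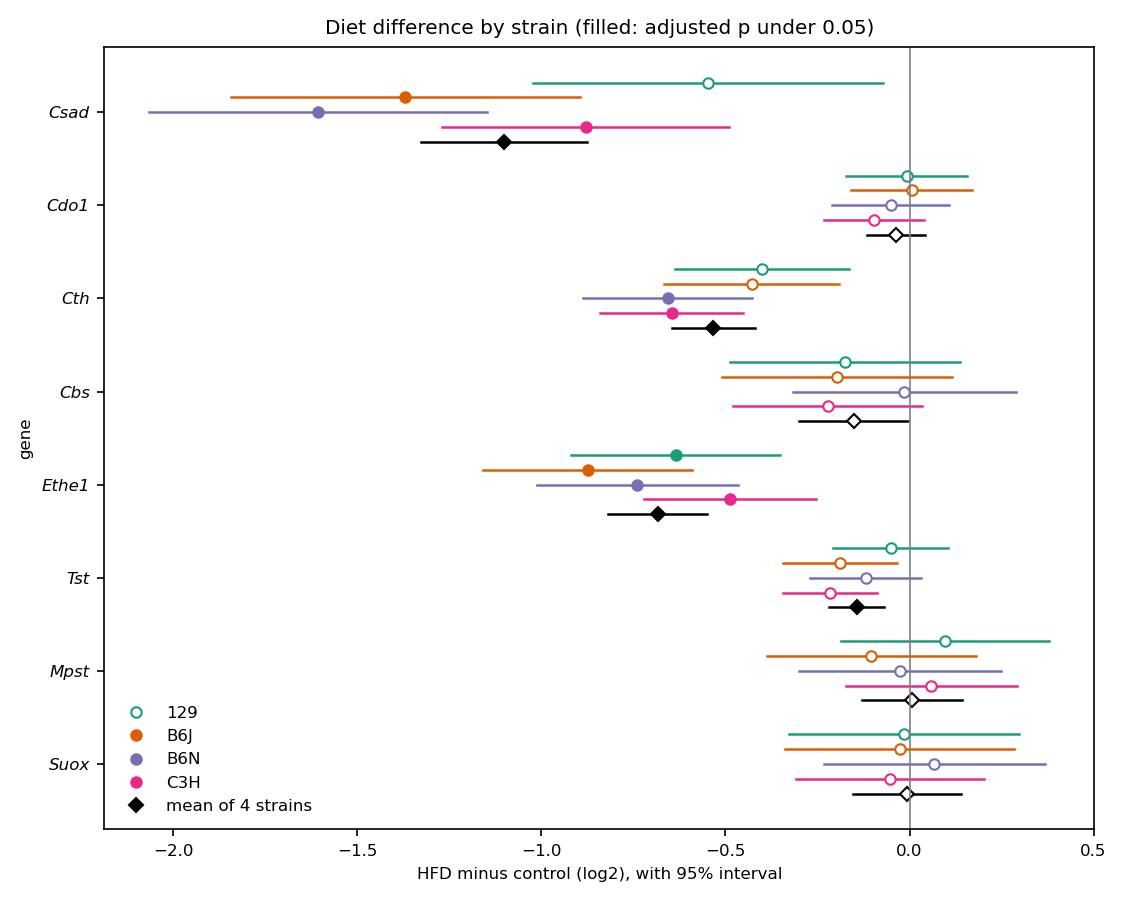
HFD minus control difference (x axis, log2) of each of the 8 genes (y axis) in 4 strains and in their mean; points are limma estimates, lines are 95% intervals, and filled points passed an adjusted p of 0.05. Csad, Cth and Ethe1 lie left of 0 in every strain, with Csad between -1.61 and -0.55, while the Cdo1, Mpst and Suox intervals cross 0 throughout.

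The 3 members that fell most were also examined within the structure of the B6 arrays. The leading component of within-group variation took 36.2% of that variation in 129, 31.0% in B6 and 27.6% in C3H. In B6 its score split the arrays at 0 into a low and a high part. The low part held 5 B6J HFD, 3 B6N HFD, 4 B6J control and 3 B6N control arrays, and the high part 2, 5, 4 and 5. Across the 31 B6 arrays the group-centred signal went with this score at r = -0.84 for Cth, 0.70 for Ethe1 and 0.38 for Csad, as a description.

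The score was computed from the same arrays, with these 3 genes included. Separation within its parts is therefore a description and no independent test. Within these parts the diet differences of these 3 genes were all negative. For Csad they were -1.58 in the low and -0.86 in the high part of B6J, and -1.69 and -1.55 in B6N. Those of Cth were -0.50 and -0.53 in B6J, and -0.54 and -0.72 in B6N, and those of Ethe1 -0.73 and -0.84 in B6J, and -0.59 and -0.83 in B6N. In both parts of both strains, every HFD array lay below every control array for each of the 3 genes, including Ethe1 in B6N, whose groups overlapped when the parts were pooled. Of all genes 17 (0.0853%) did so in all 4 parts. Singly the parts hold few arrays, and the share was 1.44% in the low and 8.29% in the high part of B6J and 5.76% in the low and 0.602% in the high part of B6N. Tst lay fully below in both B6J parts and in the low part of B6N. With the parts as a block the Cth difference in B6J was called (-0.51, adjusted p = 0.0047). The parts were defined after the data were seen, and no label names them. They followed the replicate numbers in unbroken runs. Replicates 1 to 4 of B6J controls, 1 to 5 of B6J HFD and 1 to 3 of both B6N groups were low. All later numbers were high, and what a number marks is not labelled.

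**Figure D3:**
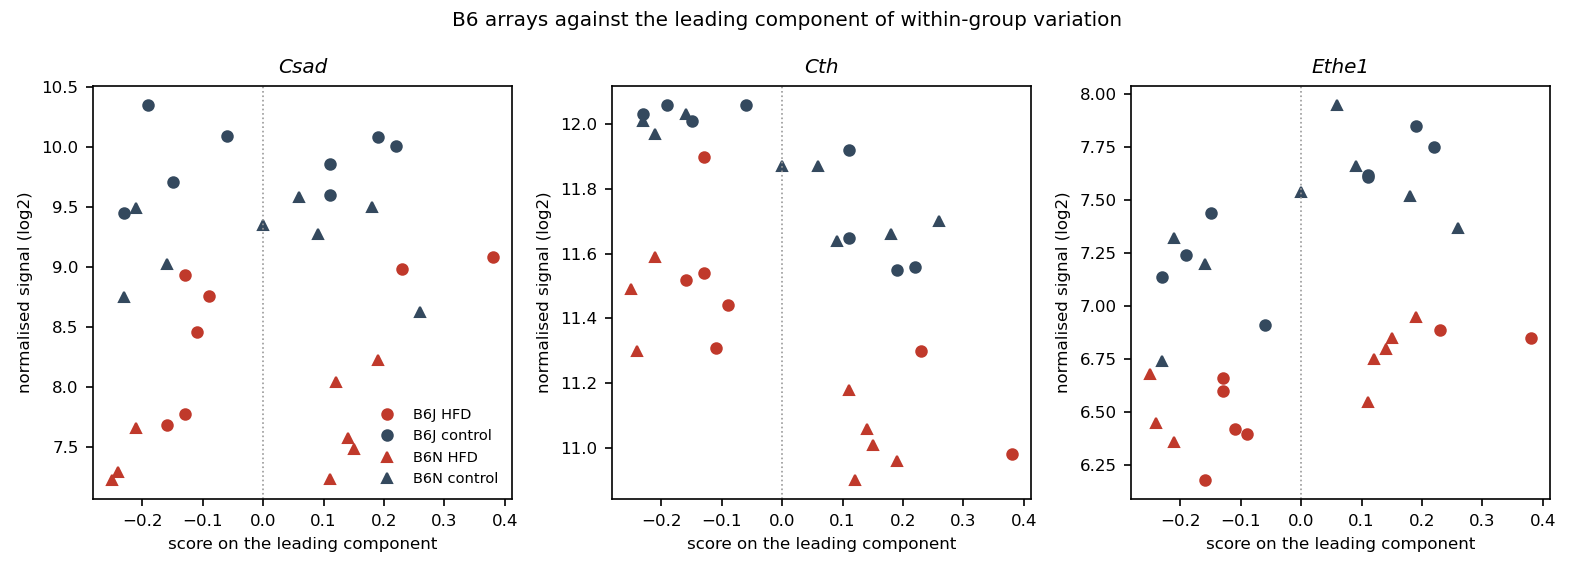
Normalised log2 signal of Csad, Cth and Ethe1 (y axes) on the 31 B6 arrays against their score on the leading component of within-group variation (x axes); red is HFD and dark blue control, circles are B6J and triangles B6N. Cth is lower and Ethe1 higher towards positive scores, and on either side of 0 the HFD arrays of each strain lie below its control arrays, as in 0.0853% of all genes (in 1 part alone, 0.602% to 8.29%).

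Member pairs were also compared among mice of 1 group. Over the 72 arrays, with each gene centred on its group means, 16 of the 28 member pairs had an adjusted permutation p under 0.05 (Pearson r, 100000 resamples within groups). The weakest of the 16 had an absolute r of 0.26, a size that 26.3% of all gene pairs reached. After each set's leading component was regressed out, 7 pairs were called, the weakest at 0.32, reached by 7.2% of all gene pairs. The highest r was that of Cbs and Suox, 0.72 (Spearman rho 0.64, permutation p = 1e-05 for each, the smallest these resamples can give; adjusted p = 9.3e-05 and 0.00014). It was 0.69 without the 2 arrays farthest from the median, 0.42 to 0.91 within strains, and 0.66 with the component removed. Cbs and Mpst reached 0.62 (rho 0.50; adjusted permutation p = 9.3e-05 and 0.00017; within strains 0.37 to 0.81), and 0.34 with the component removed (adjusted permutation p = 0.046).

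Csad, which fell on HFD, varied with Cbs and Mpst, which were not called. Its r with Cbs was 0.51 (rho 0.48; adjusted permutation p = 0.00011 and 0.00017), 0.42 to 0.66 within strains and 0.39 with the component removed (adjusted p = 0.011). With Mpst it was 0.46 (rho 0.50; adjusted permutation p = 0.00056 and 0.00023), 0.30 to 0.71 within strains and 0.38 with the component removed (adjusted p = 0.018). Between Csad and Ethe1, the pair called lower in most strains, r was 0.35 (rho 0.33, adjusted permutation p = 0.013 and 0.018), and 0.22 with the component removed (adjusted permutation p = 0.20). Csad and Cth went in opposite directions within groups (r = -0.31, rho -0.35; adjusted permutation p = 0.026 and 0.012; -0.47 to 0.09 within strains), and at -0.15 with the component removed the pair was not called (adjusted permutation p = 0.31).

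The pair Cdo1 and Cth rested on 1 strain. Its r was 0.44 over all arrays (rho 0.32; adjusted permutation p = 0.0008 and 0.018), but 0.87 within C3H and -0.21, 0.07 and -0.06 within 129, B6J and B6N. Cdo1 and Mpst opposed each other, at r = -0.60 (rho -0.59; adjusted permutation p = 0.00011 and 0.00014) and -0.39 to -0.67 within strains, with -0.26 after the component was removed (adjusted permutation p = 0.091).

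**Figure D4:**
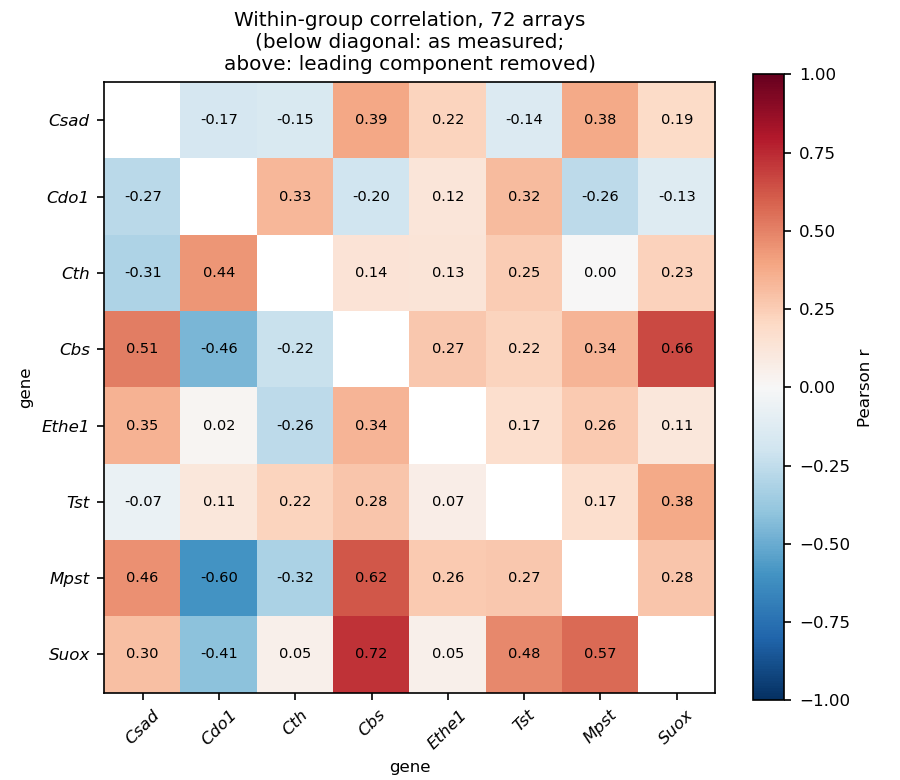
Pearson correlation of the 28 member pairs over 72 arrays, each gene centred on its group means (both axes list the 8 genes; colour and figures give r). Cells below the diagonal are as measured and those above it have the leading component of each normalised set removed; Cbs and Suox stay at 0.66, while Cdo1 and Mpst go to -0.26.

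For each member, the 3 other genes with the highest r over the same 72 centred values are given as a description. Csad was followed by Pfkm, a phosphofructokinase subunit (0.68), Clpb, a mitochondrial disaggregase (0.67), and Pomt1, an O-mannosyltransferase (0.67). Ethe1 was followed by Clpp, a mitochondrial protease subunit (0.70), Naxe, an epimerase that repairs damaged NAD(P)H hydrates (0.69), and Pex16 of peroxisome assembly (0.66). Cth had Gas2 (0.85), Mocs2 of molybdenum cofactor synthesis (0.81) and Evi5 (0.81). Cbs had the highest values, with Gldc, the glycine decarboxylase (0.91), and the plasma protein genes Serpinf2 (0.91) and Vtn (0.90).

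Suox was followed by Ide, the insulin-degrading enzyme (0.86), Abat, the GABA transaminase (0.86), and Larp1 (0.84). Mpst was followed by Lman2 (0.83), Acads, a short-chain acyl-CoA dehydrogenase (0.82), and the folate carrier gene Slc46a1 (0.82). Tst had Pecr, a peroxisomal reductase (0.71), Ak3 (0.67) and Gstm6 (0.67), and Cdo1 had 1110032A03Rik (0.82), Atp6v1d (0.79) and Slc25a46 (0.79). Within single strains these values went as low as 0.09 for Tst with Ak3, and stayed at 0.82 or above for Cth with Gas2, Cbs with each of its 3 genes, and Suox with each of its 3.

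Genes next to the members in the pathway are described by list, in the mean effect, in which 3.16% of all genes were called. Of 8 genes of taurine transport and conjugation 0 were higher and 1 was lower, Slc6a6, the taurine transporter (-0.34 ± 0.09, adjusted p = 0.0083). Its differences ran from -0.40 to -0.28 over the strains, and no single strain called it. Baat, which conjugates bile acids with taurine, had a mean difference of -0.13 ± 0.06 (adjusted p = 0.28). Of 10 genes of bile acid signalling 2 were lower, and the larger was Cyp7a1, the rate-limiting enzyme of bile acid synthesis (-1.33 ± 0.20, adjusted p = 7.89e-07). The other was Abcb11, the bile salt export pump (-0.32 ± 0.07, adjusted p = 0.0013).

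Cyp7a1 and Csad are set side by side because taurine is a partner of bile acids. Cyp7a1 was called in B6N (-2.12 ± 0.40, adjusted p = 0.00047) and C3H (-1.53 ± 0.34, adjusted p = 0.0057), and not in 129 (-0.76 ± 0.42) or B6J (-0.91 ± 0.42, adjusted p = 0.79). Csad was called in these 2 strains and in B6J. The C3H call on Cyp7a1 was lost with array weights (-1.61, adjusted p = 0.071).

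Of 14 genes of sulfide oxidation and sulfate 3 were lower and 1 was higher. Selenbp1, a methanethiol oxidase that releases sulfide (-0.39 ± 0.07, adjusted p = 9.06e-05), its close copy Selenbp2 (-0.50 ± 0.11, adjusted p = 0.0026) and Tstd3, which encodes a rhodanese-domain protein (-0.40 ± 0.09, adjusted p = 0.0048), were lower. Probe sets of Selenbp1 and Selenbp2 can share signal, so their values are uncertain singly. Both were called in B6N (-0.75 ± 0.15, adjusted p = 0.00078, and -1.05 ± 0.23, adjusted p = 0.0040), where a fit of that strain's arrays alone gave the same differences without the calls (adjusted p = 0.20 and 0.16). In B6J they were not called, at -0.55 and -0.56, but were in a fit of its arrays alone (adjusted p = 0.0095 and 0.013). In 129 they were at 0.02 ± 0.15 and 0.19 ± 0.24. Tstd3 in C3H lay at the threshold (-0.60 ± 0.16, adjusted p = 0.05004). The higher gene was Tstd2 (0.21 ± 0.06, adjusted p = 0.035). Sqor, the quinone reductase that takes up sulfide ahead of Ethe1, had a mean difference of -0.07 ± 0.06 and was not called.

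Of 15 genes of cysteine transport and use 2 were higher and none lower, both of coenzyme A synthesis. They were Pank1, the pantothenate kinase (0.29 ± 0.05, adjusted p = 1.28e-05; called in B6N at 0.44 ± 0.10), and Coasy (0.26 ± 0.07, adjusted p = 0.0078). Of 11 methionine cycle genes 1 was lower, Gnmt, the glycine N-methyltransferase (-0.22 ± 0.04, adjusted p = 1.97e-05). Of 9 glutathione genes 1 was lower, the peptidase gene Lap3 (-0.11 ± 0.03, adjusted p = 0.027). Tstd2, Coasy, Gnmt and Lap3 were named after their values were seen, since they were the remaining calls. Ggct, which breaks down gamma-glutamyl amino acids, was called in C3H (0.34 ± 0.09, adjusted p = 0.024), but not without HFD replicate 1, 2 or 6 there (adjusted p = 0.051, 0.084 and 0.12). The median change was -0.15 over the 8 members and lay between -0.11 and 0.05 over the 6 neighbouring lists and at 0.00 over all genes.

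**Figure D5:**
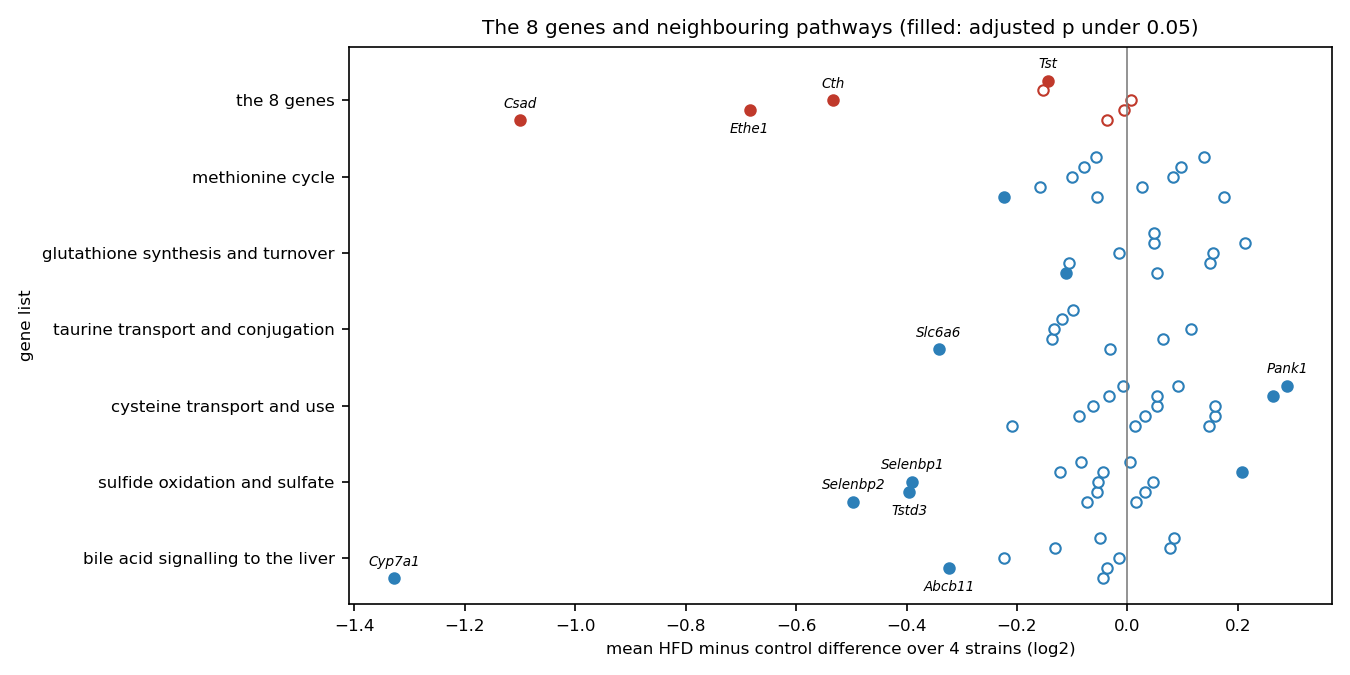
Mean HFD minus control difference over 4 strains (x axis, log2) of the 8 genes and of the measured genes of 6 neighbouring lists (y axis); each point is a gene, filled where its adjusted p was under 0.05. Csad at -1.10 and Cyp7a1 at -1.33 lie farthest to the left, and most other genes lie close to 0.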

How the data were processed

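Liver RNA was column-purified with DNase treatment, labelled by a whole-transcript sense-target assay and hybridised to Affymetrix arrays, per the labels' protocols. The submitters' processing notes name RMA and Affymetrix Expression Console 1.1 as the tools with which the authors made the deposited log2 values (35556 probe sets, 72 arrays). RMA corrects background, applies quantile normalisation and summarises each probe set. Which arrays were normalised as 1 set is not given in the sources used here; 3 sets were read from the array medians. No columns were identical, and within groups arrays correlated at up to 0.9954. Arrays give no read depth, and their number limits the precision.

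Probe sets were named through the platform annotation: 21789 carried 1 symbol, 1621 several and 12146 none, and 21698 of the first matched the RefSeq gene table (GRCm38.p6) by Entrez identifier. Per gene the probe set of highest mean was kept, leaving 19938 genes. They were fitted in limma 3.58.1 (R 4.3.3) with 8 group means over 72 arrays, 64 residual degrees of freedom, eBayes moderation and two-sided tests, and p-values were adjusted per contrast across all genes (Benjamini-Hochberg). Correlations used Python 3.11.15, NumPy 2.4.6 and pandas 2.3.3. The fit was tested on simulated data with independent noise for each gene and array. That simulation lacks the within-group variation that genes share in these arrays, so it does not cover it. The planned protein sequences were not used here, and Cdo1 has no sequence shown.

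The members, lists and tests were chosen with earlier results of these data known. Named from the neighbouring lists were genes called with a log2 change of at least 0.3 in the mean or in a strain, at most 4 a list. Baat and Sqor, which were not called, were named outside this rule, as were Tstd2, Coasy, Gnmt and Lap3. Litters and days of sampling are not labelled, so p-values cover only the spread among the mice sampled. Replicate numbers are shared by HFD and control groups. No label says that a number pairs them, and the reported fit has no replicate term in any strain. Same-numbered arrays deviated together, with r over 0.1, in 8 of 8 pairs of B6N (r of 0.10 to 0.46), 6 of 7 of 129, 5 of 7 of B6J and 1 of 8 of C3H. The replicate block was fitted in all 4 strains as an alternative. Alternatives were quantile normalisation or median centring of all arrays, 1 strain's arrays alone, array weights, an intensity trend with robust prior, bright genes only, every probe set, an acinar covariate, the replicate block and leaving out each array. The B6 parts and the component were added after seeing the data.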

Additional observations from a re-analysis of the deposited data

Results flagged for a closer look

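Of 56 sets of 1 gene in 1 group that were small enough to test, 3 had an array far from the rest, and chance alone flags about 1 set in 20. Cbs in B6J HFD livers was at 9.85 on replicate 3, with the nearest other array at 10.55. In 129 controls, replicate 6 was low for Mpst (9.29, nearest other array 9.74) and for Suox (10.26, nearest other array 10.94). That array also had the highest median of its set (6.653), an acinar mean of 11.27 and a score of 0.82 on the leading component, where the other 129 controls scored between -0.29 and -0.02. None of these 3 genes was called in either strain with or without the array.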

How the results depend on the processing

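In the mean effect, Csad, Cth, Ethe1 and Tst were called under every alternative and without each of the 72 arrays. The members called in B6J and B6N also kept their calls under each of these. The number of members called in 129, 1 in the report, was 2 after quantile normalisation, beside 0.637% of all genes, and 3 with array weights, beside 2.89%. It was 2 with the B6 parts as a block, beside 0.863%, and 2 with the component as a covariate, beside 1.29%, against 0.577% in the report. In C3H it was 1 in place of 3 with array weights, beside 0.527% of all genes, against 0.853%. Between B6N and B6J HFD livers it was 1 in place of 0 with array weights, with the parts and with the component (Csad -0.92, -1.03 and -0.93), settings in which 1.74%, 0.191% and 0.502% of all genes were called, against 0.191%, and 0 to 1 without single arrays. Called pairs numbered 7 in place of 16 with the component removed, where Cth with Cbs turned to 0.14 and Cth with Ethe1 to 0.13. In C3H, Tst was called with the component (-0.22, adjusted p = 0.046).

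Signs turned only for differences that were not called. In 129, Selenbp1 was at -0.03 after quantile normalisation and -0.01 with the replicate block, and Cdo1 at 0.02 with the block. In B6J, array weights put Cdo1 at -0.02 and Suox at 0.06. With the block Suox was at 0.07 in C3H and 0.02 in the mean, and Mpst in the mean was at -0.02 after quantile normalisation. Leaving out single arrays gave -0.03 to 0.02 (Cdo1), -0.06 to 0.04 (Ggct), -0.04 to 0.06 (Selenbp1) and -0.13 to 0.06 (Suox) in 129. It gave -0.02 to 0.03 (Cdo1) and -0.08 to 0.04 (Suox) in B6J, -0.10 to 0.04 (Cbs) and -0.07 to 0.04 (Mpst) in B6N, -0.01 to 0.15 (Mpst) and -0.13 to 0.04 (Suox) in C3H, and -0.01 to 0.03 (Mpst) and -0.04 to 0.02 (Suox) in the mean.

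The replicate block, by replicate number within strain, lost Ethe1 in C3H (-0.34, adjusted p = 0.10) and changed no other member's call. Among the neighbouring genes named it lost Ggct in C3H (0.34, adjusted p = 0.070) and gained Tstd3 there (-0.79, adjusted p = 0.018), which every other alternative on all arrays also called except median centring and every probe set; a fit of C3H arrays alone did not. The share of all genes called moved by over 1.5 times under some settings, from 0.206% with that strain's arrays alone to 2.89% with array weights in 129, 0.241% to 0.682% in B6J, 0.762% to 1.82% in B6N and 2.68% to 6.05% in the mean, 0.0301% (replicate block) to 0.356% (array weights) in the test of strain differences, 0.0351% to 0.16% (acinar covariate) between B6N and B6J controls, and 0.166% to 1.74% (array weights) between their HFD livers; in C3H 93 genes were called with its arrays alone, against 170, and at most 1.93%. The highest shares in B6N, C3H and the mean came with bright genes only, a fit of fewer genes. Other causes were not tested. No detection calls were used, so low signals have no bound.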
